A study of Mus musculus with 6 samples.

Results

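E-cadherin (Cdh1), P-cadherin (Cdh3), the catenins Ctnna1, Ctnnb1 and Ctnnd1, the epithelial cell adhesion molecule Epcam and the epithelial claudins Cldn3, Cldn4, Cldn6 and Cldn7 were followed in cultured embryonic submandibular glands (eSMGs). These 10 adhesion genes were picked by symbol from the 23260 genes counted in each library, and all 10 had enough counts to be among the 13610 genes tested. Glands came from ICR mice at embryonic day 14. Both groups were cultured for 6 h, and 1 of them received AMD3100, an antagonist of the chemokine receptor CXCR4, at 50 µM. Each group had 3 tubes of up to 10 pooled whole glands, so that epithelium, mesenchyme, nerve and vessel contributed to every library and a tube, not an embryo, was the unit of replication. The comparison asks whether CXCR4 inhibition moved the transcripts of epithelial cell-cell adhesion. In such bulk samples, fewer epithelial cells and less RNA per epithelial cell cannot be told apart.

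Classical cadherins join neighbouring epithelial cells at the adherens junction through their extracellular domains. Beta-catenin (Ctnnb1) binds the distal part of the cadherin tail and is also the transcriptional effector of canonical WNT signalling, alpha-catenin (Ctnna1) links that complex to actin, and delta-catenin (Ctnnd1, p120-catenin) binds the part of the tail next to the membrane and keeps the cadherin from being internalized. Epcam is an epithelial surface glycoprotein that binds claudin-7, and claudins form the strands of the tight junction that seal the space between epithelial cells. In the branching salivary gland, E-cadherin marks the epithelium of buds and ducts, whereas the surrounding mesenchyme lacks it.

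The libraries held between 9051595 counts (AMD3100 replicate 3) and 14393031 counts (AMD3100 replicate 1), and a member of the group held between 39 and 10086 counts in a library. Expression is given as TMM-normalized CPM (counts of a library scaled to a common total). Taken as the smallest level a library can show, 3 counts came to between 0.208 and 0.331 CPM of the library totals, before TMM normalization. Because the libraries were made from transcript 3′ ends, read counts do not scale with transcript length, and splice forms of the same gene were not separated.

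Markers of epithelium and mesenchyme were detected. All 12 of the other epithelial markers and all 12 mesenchyme markers were expressed above the filter, led by Krt15 and Col3a1. All 8 erythroid markers passed it too and summed to between 7008 and 19400 CPM in a library, so that passing the filter does not identify the tissue. However, both replicate 3 libraries stood apart from the other 4. Summed skeletal muscle markers, of which Actc1 was the most abundant, reached 1236 CPM in control replicate 3 and 1619 CPM in AMD3100 replicate 3, against 134 to 265 CPM in the others. Summed mesenchyme markers were 2436 and 2131 CPM in the replicate 3 libraries and between 4699 and 4707 CPM in the others, and summed macrophage markers, led by C1qa, were 192 and 158 CPM against 62.5 to 87.7 CPM. Values without these libraries are therefore also given for several genes, among them Ctnnd1, Ctnna1, Cdh1 and Cldn6.

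Ctnnd1 was the adhesion gene that was lower in AMD3100-treated eSMGs. Its expression was 49.2, 61.3 and 18.1 CPM in control replicates 1, 2 and 3, and 9.45, 16.8 and 7.0 CPM in AMD3100 replicates 1, 2 and 3. Every AMD3100-treated library lay below every control library, although the lowest control (replicate 3) came close to the highest AMD3100 library (replicate 2). The mean went from 42.9 ± 22.3 CPM to 11.1 ± 5.09 CPM (SD, n = 3 each), which was 3.87-fold lower, or −1.95 on the log2 scale (SE 0.52, 95% interval −3.14 to −0.76). With edgeR's quasi-likelihood test the unadjusted p was 0.00487, the 15th lowest of the 13610 genes, and the Benjamini-Hochberg adjusted p was 1.0. Ctnnd1 passed the thresholds in the study's results text, a fold change over 1.5 with an unadjusted p under 0.05. Of all genes, 1.68% passed them (1.28% lower and 0.397% higher in AMD3100). A figure caption of the study gives a log2 fold change of at least 1 in place of 1.5-fold, which Ctnnd1 also met. Ctnnd1 failed the adjustment over all genes.

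The lower Ctnnd1 level did not rest on the replicate 3 libraries. Within same-numbered pairs the log2 difference was −2.32, −1.84 and −1.31 for replicates 1, 2 and 3, and 14.6% of genes were lower in all 3 pairs. Restricted to replicates 1 and 2, the difference was −2.09 (edgeR, unadjusted p = 7.77e-05, adjusted p = 0.200). With the replicate number as a block it was −1.89 (SE 0.28, edgeR adjusted p = 0.141), in a fit where 2.9% of genes were lower past both thresholds and 0.022% had an adjusted p under 0.05. DESeq2, with 2.39% of genes past both thresholds and 0.0368% under an adjusted p of 0.05, gave Ctnnd1 an adjusted p of 0.335. In raw reads, Ctnnd1 had 562, 842 and 182 counts in the controls and 164, 182 and 57 counts in the AMD3100 libraries.

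**Figure D1:**
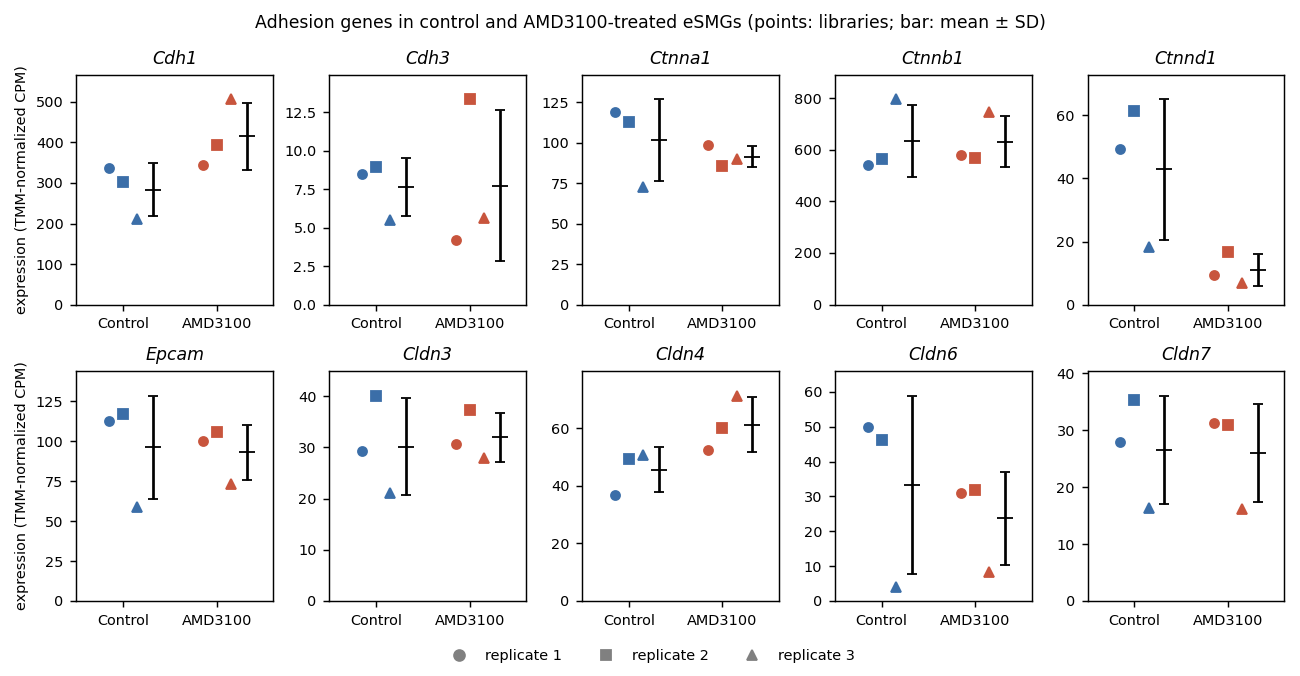
Expression (TMM-normalized CPM, linear axes from 0) of each of the 10 adhesion genes in the 3 control (blue) and 3 AMD3100 (red) libraries, with symbols for replicate numbers and bars for mean ± SD. Ctnnd1 lay between 7.0 and 16.8 CPM in AMD3100 libraries and between 18.1 and 61.3 CPM in controls, whereas the ranges of Epcam, Cldn3, Cldn7, Ctnna1, Ctnnb1, Cdh3 and Cldn6 overlapped.

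Ctnnd1 lies on the minus strand of chromosome 2 (chr2:84587096-84658977, GRCm38.p6, the RefSeq form of the mm10 build named in the processing notes). The sequence between its annotated start and the start of the divergent neighbour Btbd18 is printed here because Ctnnd1 was the single adhesion gene past the thresholds and both genes begin at its edges. It covers chr2:84658978-84659071 (94 bases of intergenic sequence, shown on the minus strand, 5′ to 3′ toward Ctnnd1), with CCAAT boxes, written CCAAT or ATTGG on either strand, in capitals:
Ctnnd1 upstream: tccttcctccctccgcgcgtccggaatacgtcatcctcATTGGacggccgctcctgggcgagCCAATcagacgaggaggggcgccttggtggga
The interval held 1 match in each orientation. A CCAAT box was present in 37.4% of the 32851 RefSeq promoter windows searched (250 bases before to 50 bases after each start). A match is thus common in windows of that length, and no rate was computed for stretches of 94 bases. Btbd18 was expressed at a low level, with a mean of 1.34 CPM over the 6 libraries and a log2 difference of 0.32 (SE 1.61).

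The other catenins were measured more precisely and did not pass the thresholds. Ctnnb1 was 542.3, 565.1 and 795.9 CPM in the controls and 581, 567 and 746.3 CPM after AMD3100, a log2 difference of −0.01 (SE 0.29, 95% interval −0.67 to 0.66). The groups overlapped fully, and the highest library of each was replicate 3. Ctnna1 was 119.2, 112.8 and 72.6 CPM in the controls and 98.3, 85.4 and 89.8 CPM after AMD3100, a log2 difference of −0.16 (SE 0.29, 95% interval −0.82 to 0.51). All 3 AMD3100 values of Ctnna1 fell within the control range, and 2 of 3 controls lay above every AMD3100 library. Within pairs Ctnna1 differed by −0.28, −0.40 and 0.30 on the log2 scale for replicates 1, 2 and 3. With replicates 1 and 2 alone the estimate was −0.34 (edgeR unadjusted p = 0.0859, adjusted p = 0.905). With 1 library left out it ranged from −0.34 to −0.03. Ctnna1 overlaps Lrrtm2 in the RefSeq annotation, and whether strand was used in counting is not given in the sources used here, so that reads of the pair may not be separated.

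Cdh1 pointed the other way without passing the thresholds. It was 337, 301.8 and 210.6 CPM in control replicates 1 to 3 and 344.1, 393.7 and 506.8 CPM in AMD3100 replicates 1 to 3. All AMD3100-treated libraries lay above all controls, but the nearest values, 337 and 344.1 CPM, were close. The means were 283.1 ± 65.2 and 414.8 ± 83.4 CPM (SD, n = 3 each), a 1.47-fold difference (log2 0.55, SE 0.31, 95% interval −0.15 to 1.25, edgeR unadjusted p = 0.108, adjusted p = 1.0). The pairs differed by 0.03, 0.38 and 1.26 on the log2 scale, so that replicate 3 gave most of the difference, and with replicates 1 and 2 alone the estimate was 0.20 (edgeR unadjusted p = 0.161). With the replicate block the estimate stayed at 0.56 (95% interval 0.09 to 1.03, unadjusted p = 0.0253, adjusted p = 0.703), which was still under a fold change of 1.5.

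The summed level of other epithelial markers was also above the controls in each AMD3100 library. Over 12 genes (keratins, Sox9, Sox10, Rab25, Prom1 and Kit), it reached 1849, 1885 and 1254 CPM in the controls and 2353, 1947 and 2937 CPM after AMD3100. AMD3100 replicate 3 was highest for both this sum and Cdh1, but AMD3100 replicates 1 and 2 stood in opposite order for them. Krt15, a keratin of salivary epithelial progenitors, made up 61.6% of this sum, and its own log2 difference was 0.72 (SE 0.37, edgeR unadjusted p = 0.0798). When libraries were scaled to this marker sum instead, which lowered the median log2 difference of all genes to −0.54, Cdh1 differed by 0.03 and Ctnnd1 by −2.30.

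**Figure D2:**
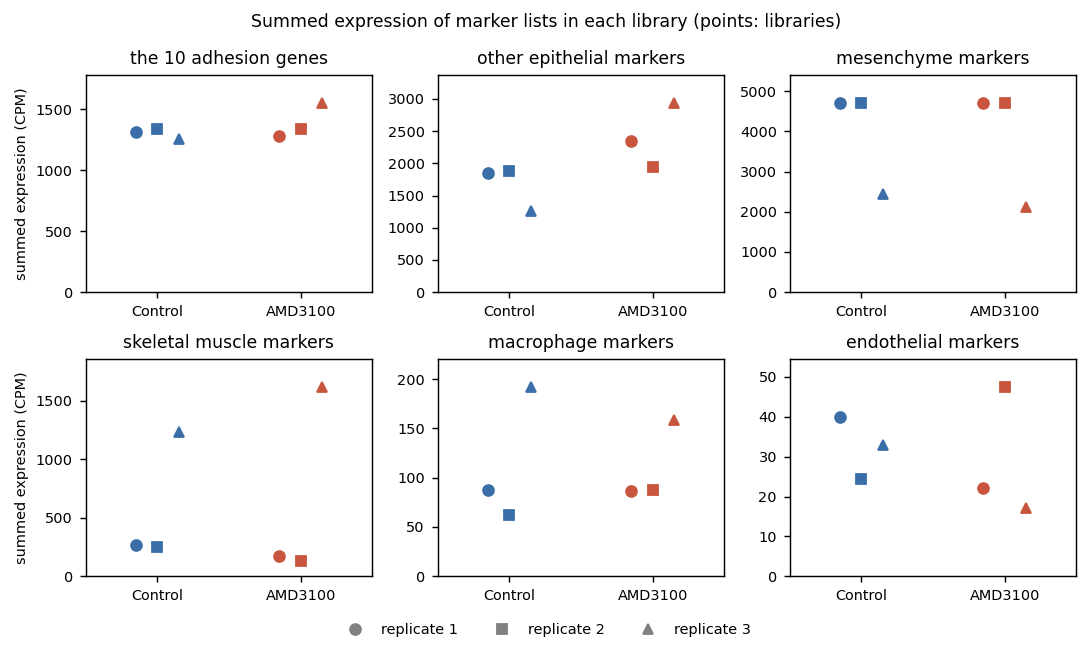
Summed expression (CPM) of the 10 adhesion genes and of marker lists for other epithelial, mesenchyme, skeletal muscle, macrophage and endothelial cells in each library (blue, control; red, AMD3100; symbols, replicate numbers). Both replicate 3 libraries were high for skeletal muscle (1236 and 1619 CPM) and low for mesenchyme markers (2436 and 2131 CPM), and the epithelial sum was above all controls in each AMD3100 library.

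Cdh3, which marks basal epithelial cells, was measured from few reads, with 46 to 145 counts in a library. It was 8.49, 8.96 and 5.48 CPM in the controls and 4.21, 13.4 and 5.65 CPM after AMD3100, a log2 difference of 0.02 (SE 0.57, 95% interval −1.29 to 1.32). AMD3100 replicates 1 and 2 held the lowest and the highest of the 6 values, and the interval leaves room for a change of over 2-fold in either direction. Cdh3 and Cdh1 are neighbours on chromosome 8 (chr8:106510852-106556911 and chr8:106603350-106670247), 46439 bp apart.

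Epcam was 112.5, 117.3 and 59.0 CPM in the controls and 100.5, 105.5 and 73.4 CPM after AMD3100. The lowest library of each group was replicate 3, and the groups overlapped. The log2 difference was −0.05 (SE 0.34, 95% interval −0.83 to 0.73). Cldn7, its claudin partner, was 27.9, 35.3 and 16.4 CPM in the controls and 31.2, 30.9 and 16.1 CPM after AMD3100, with the same low replicate 3 libraries and a log2 difference of −0.03 (SE 0.41, 95% interval −0.95 to 0.90).

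Cldn4 was 36.7, 49.2 and 50.9 CPM in the controls and 52.4, 60.1 and 71.3 CPM after AMD3100. The AMD3100 values were all above the controls, and the nearest values, 50.9 and 52.4 CPM, were close. The means were 45.6 ± 7.74 and 61.3 ± 9.52 CPM (SD, n = 3 each), a log2 difference of 0.43 (SE 0.28, 95% interval −0.22 to 1.07, edgeR unadjusted p = 0.168). With the replicate block it was 0.43 (unadjusted p = 0.0367, edgeR adjusted p = 0.722), and scaled to the epithelial marker sum it turned to −0.16. Cldn3 (chr5:134986214-134987476), which shares its stretch of chromosome 5 with Cldn4 (chr5:134945123-134946934), was 29.2, 40.1 and 21.1 CPM in the controls and 30.8, 37.3 and 28.0 CPM after AMD3100, with overlapping groups and a log2 difference of 0.09 (SE 0.34, 95% interval −0.68 to 0.85). Cldn3 overlaps Wbscr25 in the annotation, so that the limit given for Ctnna1 holds for it as well.

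Cldn6, a claudin of embryonic epithelia, varied most between the libraries. It was 50.1 and 46.1 CPM in control replicates 1 and 2 but 3.89 CPM in control replicate 3, and 31.1, 31.8 and 8.23 CPM in AMD3100 replicates 1 to 3. The replicate 3 libraries were 6.87-fold lower than the others (geometric means), the largest such fold of the 10 genes. Over all 6 libraries the log2 difference was −0.49 (SE 0.82, 95% interval −2.34 to 1.36). With replicates 1 and 2 alone, Cldn6 was lower in AMD3100 past the thresholds (log2 −0.62, edgeR unadjusted p = 0.0420, adjusted p = 0.844), as were 2.48% of the genes tested in those 4 libraries. This difference did not reach the log2 fold change of 1 given in the study's figure caption. With all libraries it was −0.15 with the replicate block (unadjusted p = 0.684), −0.06 after quantile normalization and −1.02 to −0.08 with 1 library left out, none of them past the thresholds.

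The replicate 3 libraries were also lowest for other members. With the replicate 3 libraries left out, groups did not overlap for 6 of the 10 genes (Cdh1, Ctnna1, Ctnnd1, Epcam, Cldn4 and Cldn6), as for 37.1% of all genes. Epcam, Cldn3, Cldn6 and Cldn7 were lower in both replicate 3 libraries than in any of the other 4, a pattern that 21.1% of all genes showed, and Ctnnb1 was higher in both, as were 23.1% of all genes. Epcam was 1.65-fold and Cldn7 1.93-fold lower in replicate 3 than in the others, whereas Cdh1 was low in control replicate 3 and highest in AMD3100 replicate 3. The summed skeletal muscle, mesenchyme and macrophage markers moved with these values, and their part in them was not tested.

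As a group, the 10 genes were spread around 0. Beside Ctnnd1, none of the other 9 passed the thresholds, and none of the 10 had an edgeR adjusted p under 0.05 (0 of 13610 genes did; 228 had an unadjusted p under 0.05, all of them also past the fold change threshold). Their median log2 difference was −0.02, against 0.02 over all genes tested, with 4 genes higher and 6 lower. Groups did not overlap for 3 of the 10 genes (Cdh1 and Cldn4 higher, Ctnnd1 lower), compared with 7.44% of all genes (4.17% lower and 3.28% higher). After quantile normalization Cdh1 overlapped, and scaled to the epithelial marker sum the 3 genes were Ctnna1, Ctnnb1 and Ctnnd1, all lower on a scale where the median of all genes was −0.54. For Cdh1, Cldn4 and Ctnnd1 on the TMM scale an exact permutation test gave p = 0.1, two-sided, which is the smallest value that 3 against 3 libraries can reach.

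**Figure D3:**
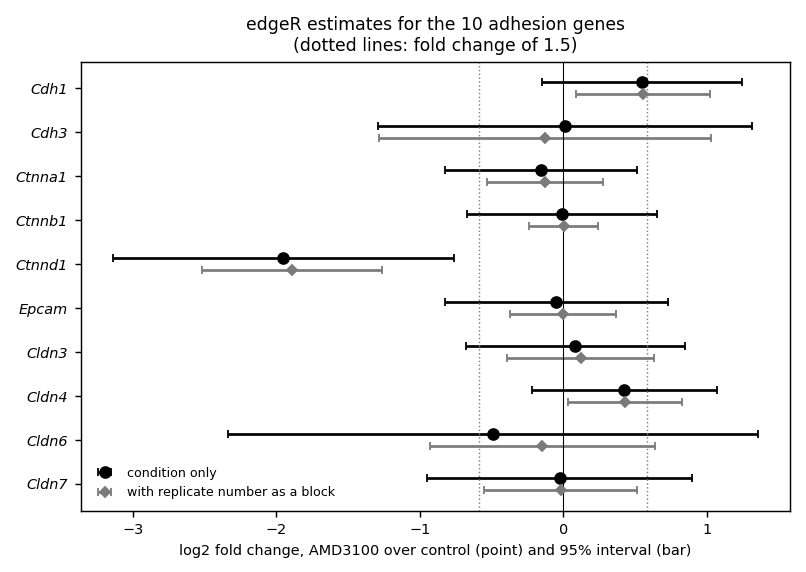
Log2 fold change (AMD3100 over control) with its 95% interval for each adhesion gene, from edgeR without (black) and with (grey) the replicate number as a block; dotted lines mark a 1.5-fold change. The Ctnnd1 intervals lay wholly below 0 (−3.14 to −0.76 without the block), while the intervals of Cdh1 and Cldn4 excluded 0 with the block only.

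**Figure D4:**
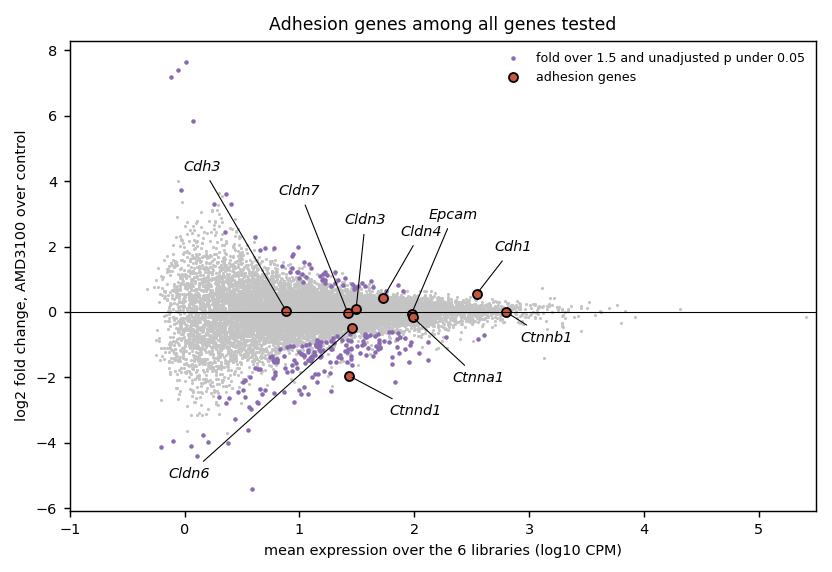
Log2 fold change (AMD3100 over control) against mean expression (log10 CPM) for the 13610 genes tested (grey), with the 228 genes past both thresholds in purple and the 10 adhesion genes in red. Ctnnd1 lay at −1.95 and the other 9 between −0.49 and 0.55.

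Since catenins act bound to cadherins, each transcript was also set against Cdh1 in the same library. For every 100 counts of Cdh1 there were 14.6, 20.3 and 8.62 counts of Ctnnd1 in the controls and 2.75, 4.26 and 1.38 after AMD3100 (14.5 ± 5.85 and 2.80 ± 1.44, SD, n = 3 each). Ctnna1 was also lower without overlap, with 35.4, 37.4 and 34.5 counts per 100 of Cdh1 in the controls and 28.6, 21.7 and 17.7 after AMD3100 (35.7 ± 1.5 and 22.7 ± 5.5). The control libraries, replicate 3 included, were close to each other in this ratio. Because Cdh1 itself was higher in each AMD3100 library, 17.2% of all genes were lower relative to Cdh1 without overlap and 0.242% were higher. The ratios of the remaining 7 members overlapped, among them Epcam with 33.4, 38.9 and 28.0 counts per 100 of Cdh1 in the controls and 29.2, 26.8 and 14.5 after AMD3100.

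**Figure D5:**
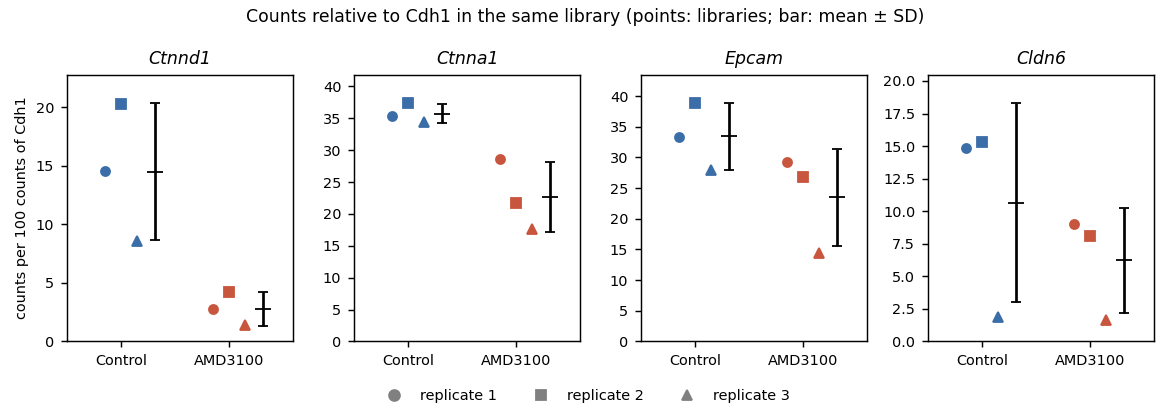
Counts of Ctnnd1, Ctnna1, Epcam and Cldn6 per 100 counts of Cdh1 in the same library (linear axes from 0; blue, control; red, AMD3100; bars, mean ± SD). Ctnnd1 and Ctnna1 did not overlap between groups (8.62 to 20.3 against 1.38 to 4.26, and 34.5 to 37.4 against 17.7 to 28.6), and Cldn6 was low in both replicate 3 libraries.

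The genes whose pattern over the 6 libraries was most like that of Cdh1 were sought among 8245 genes with a mean of at least 10 CPM, by the root mean square difference of log2 CPM after centring each gene on its own mean. Adgrg6 (0.13), Camsap2 (0.15) and Brsk1 (0.15) were the closest. Of the adhesion genes, Cldn4 (0.34, rank 428) and Cldn3 (0.37, rank 775) were nearest to Cdh1, and Cldn6 (1.27) and Ctnnd1 (1.32) were the farthest. The likeness is a description over 6 libraries, and 2 of these share the high muscle markers.

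Among transcription factors known to repress Cdh1, Snai1 was lower after AMD3100. Snai1, which binds E-boxes in the promoters of epithelial genes, was 38.3, 40.0 and 66.7 CPM in the controls and 15.9, 23.0 and 34.1 CPM after AMD3100. The groups did not overlap, as for 4.17% of all genes in the lower direction, and in each group the highest library was replicate 3. The means were 48.3 ± 16.0 and 24.3 ± 9.20 CPM (SD, n = 3 each), 1.99-fold lower (log2 −0.99, SE 0.39, edgeR unadjusted p = 0.0309, adjusted p = 1.0). Of the 8 repressors listed 7 were tested, and 1 passed the thresholds, in the lower direction (1.28% of all genes), with a list median of −0.28. Twist1 (log2 −0.87, SE 0.47, unadjusted p = 0.0970) and Zeb2 (0.56, SE 0.31, unadjusted p = 0.106) had the next lowest p-values. With the replicate block Twist1 also passed, in the lower direction (edgeR unadjusted p = 0.0193), a fit in which 4.39% of all genes did so in either direction.

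The E-box bound by Snail factors was looked up in the RefSeq promoter windows of the adhesion genes because Snai1 was the repressor past the thresholds. The windows searched for the adhesion genes covered 7 of the 10 genes. The promoters of Cdh1, Cdh3 and Ctnna1 were not searched, so nothing can be said of E-boxes in them. The letters CACCTG or CAGGTG, either of which reads as the other on the opposite strand, were present in 5 of the 10 windows of these genes, 1 each of Epcam, Cldn3, Cldn4, Cldn6 and Cldn7 (at the second of its 2 starts), and not in those of Ctnnb1 and Ctnnd1, and 20.2% of all 32851 windows held them. Examples from Epcam, Cldn4 and the second annotated start of Cldn7 are given with the E-box in capitals, each on the strand of its gene (GRCm38.p6; Cldn4 on the minus strand):
Epcam, chr17:87635782-87635807: cagtagggccCACCTGctggaggacc
Epcam, chr17:87635950-87635975: ccataaaaccCAGGTGtggaggagaa
Cldn4, chr5:134946933-134946958: ttaactgcagCACCTGtggccgccct
Cldn4, chr5:134946908-134946933: tttcttgttgCAGGTGcaggcaggaa
Cldn7, chr11:69965314-69965339: tcttcctcttCACCTGgacgaggagg
The first base of the match lay 187 and 19 bases before the start in Epcam. A match is a description of the letters only. Epcam and Cldn7 differed by −0.05 and −0.03 on the log2 scale in the same libraries and Cldn4 by 0.43, none of them past the thresholds.

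The rest of the adherens junction showed no gene past the thresholds. Of 20 other cadherins 10 were tested, with 5 higher and 5 lower and a median of 0.00, and the lowest p-values belonged to Cdh5 of endothelium (log2 −1.56, SE 1.42), Cdh13 (−0.78, SE 0.82) and Cdh9 (1.55, SE 1.64). Of 19 other junction genes, all tested, 11 were higher and 8 lower with a median of 0.11, and the lowest p-values were those of the alpha-catenin relatives Ctnna2 (0.87, SE 0.53), Ctnna3 (−2.04, SE 1.25) and Ctnnal1 (0.67, SE 0.48). The closest relatives of Ctnnd1, named after their values were seen, were Ctnnd2 (0.52, SE 0.41), Arvcf (−0.35, SE 0.46) and Pkp4 (0.25, SE 0.31), and none of them passed. Plakoglobin (Jup), the relative of beta-catenin and also named afterwards, was 70.4, 84.6 and 233 CPM in the controls and 54.0, 67.4 and 184 CPM after AMD3100, high in both replicate 3 libraries. Within pairs it differed by −0.38, −0.33 and −0.34 on the log2 scale, and with the replicate block by −0.35 (edgeR unadjusted p = 0.0326, adjusted p = 0.722), under a fold change of 1.5.

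Genes that handle the proteins after synthesis were likewise not called. All 6 genes of cadherin shedding and turnover were tested, with 3 higher, 3 lower and a median of −0.01, among them the sheddase Adam10 (log2 −0.30, SE 0.38) and Pip5k1c (0.23, SE 0.59). All 8 genes of Epcam partners and matriptase, the protease that cleaves Epcam, were tested with a median of 0.11, among them Cd44 (log2 −0.40, SE 0.34) and Prss8 (0.33, SE 0.31).

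On the signalling side of Ctnnb1, 16 of 16 genes of beta-catenin turnover and TCF partners were tested and 0 passed, with a median of 0.06. The kinase Gsk3a (log2 0.42, SE 0.28), the scaffold Apc (0.32, SE 0.29) and the coactivator Bcl9 (0.40, SE 0.41) had the lowest p-values. Of 11 WNT target genes 9 were tested and 0 passed with edgeR, with a median of −0.05. Sp5 had 56, 19 and 13 counts in the controls and 4, 0 and 5 after AMD3100 (edgeR unadjusted p = 0.0735). With DESeq2 its unadjusted p was 0.0223, under the p threshold (adjusted p = 0.9997), in a fit where 2.39% of genes passed both thresholds. Ccnd1 differed by −0.37 (SE 0.36) and Tnfrsf19 by 0.37 (SE 0.53). Sp5 did not overlap between groups, as for 4.17% of all genes in the lower direction. However, its AMD3100 counts lay at or near the 3 counts taken as the smallest measurable level.

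Of 19 other claudins in the files 7 were tested and 0 passed, with a median of −0.33 and 6 of 7 lower. Cldn11 (log2 1.24, SE 1.07), Cldn10 (−0.56, SE 0.70) and Cldn5 of endothelium (−0.79, SE 1.17) had the lowest p-values. Cldn9, named after its values were seen, lies 138 bp from Cldn6 on chromosome 17 and had 45, 58 and 3 counts in the controls and 14, 36 and 0 after AMD3100, low in the same replicate 3 libraries as Cldn6.

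Of 11 epithelial transcription and splicing factors 10 were tested, with a median of 0.04 and 0 past the thresholds. Esrp1, a splicing factor of epithelial cells, differed by 0.43 (SE 0.42), Ehf by 0.52 (SE 0.62) and Ovol1 by −0.24 (SE 0.69) on the log2 scale. With the replicate block, Ehf passed in the higher direction (0.72, edgeR unadjusted p = 0.0396, adjusted p = 0.727), as did 1.49% of all genes.

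Of the 12 other epithelial markers 2 passed, both higher (0.397% of all genes), and the list median was 0.29 with 10 higher and 2 lower. With the replicate block 3 passed, Prom1, Krt7 and Krt15 (1.49% of all genes were higher past the thresholds). Prom1, a surface protein of ductal and progenitor cells, was 12.7, 19.5 and 17.0 CPM in the controls and 31.5, 47.0 and 22.3 CPM after AMD3100 (log2 1.04, SE 0.38, edgeR unadjusted p = 0.0229, adjusted p = 1.0). Krt7, a keratin of ducts, was 9.81, 10.5 and 8.58 CPM in the controls and 29.1, 19.4 and 13.1 CPM after AMD3100 (log2 1.10, SE 0.41, edgeR unadjusted p = 0.0244, adjusted p = 1.0), and 54.5% of the 50-base stretches of its 3′ end also matched another place. Neither gene overlapped between the groups, and 3.28% of all genes were higher without overlap. Such a shared stretch was found in 0 of the 10 adhesion genes, and for Snai1 in 9.09% of its stretches.

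Over all 6 libraries and without the block, 0 markers of other cell types passed the thresholds. All 12 mesenchyme markers were tested with a median of −0.02, and Prrx1 (log2 −0.29, SE 0.27), Vim (−0.26, SE 0.29) and Osr1 (−0.23, SE 0.26) had the lowest p-values. Endothelial markers (6 of 7 tested, median −0.60) summed to 39.8, 24.4 and 33.0 CPM in the controls and 22.1, 47.5 and 17.1 CPM after AMD3100, led by Kdr (log2 0.77, SE 0.51), with Cdh5 as above and Pecam1 at −0.85 (SE 0.80). Parasympathetic nerve markers (7 of 8 tested, median 0.15), of which Tubb3 was the most abundant, summed to 614, 499.5 and 694 CPM in the controls and 531.5, 513.5 and 906 CPM after AMD3100, with Ret (−0.52), Tubb3 (0.23) and Phox2a (0.15) lowest in p. Erythroid markers, 56.7% of them Hba-a1, had a median of −0.40 with 8 of 8 lower, and Hba-a2 (−0.70), Hbb-bs (−0.45) and Hba-x (−0.54) were lowest in p. Macrophage markers had a median of 0.09, with Fcgr1 (1.10), C1qb (−0.22) and Mrc1 (0.52) lowest in p, and skeletal muscle markers one of 0.37, with Myh8 (1.17), Ckm (−1.38) and Tnnt3 (0.72). With the replicate block the skeletal muscle median turned to −0.17, and Myog (−1.16) passed in the lower direction, as did 2.9% of all genes. With replicates 1 and 2 alone, 3 skeletal muscle markers (Myog at −1.77, Myh3 at −0.85 and Actc1 at −0.69) and 2 erythroid markers (Hbb-y at −1.04 and Hba-x at −1.35) were lower past the thresholds, as were 2.48% of all genes. Of these lists, none separated the control from the AMD3100 libraries by its sum.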

How the data were processed

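The values the authors deposited are unnormalized counts of reads, 1 table per library with a row for each gene symbol, from QuantSeq 3′ mRNA libraries read as 50 bp single reads. The submitters' processing notes name Bowtie2, edgeR and the mm10 build without versions or roles, and the annotation and counting rule are not given in the sources used here. Each library listed 23282 lines, and 22 identical repeats of a symbol were left out. No molecular identifiers are mentioned, so that floors cover counting error only.

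Counts were tested with edgeR 4.0.16 in R 4.3.3 (TMM, filterByExpr on condition, glmQLFit, glmQLFTest, Benjamini-Hochberg over 13610 genes), with condition as the only term. The paper describes its results as coming from triplicate independent experiments. Nothing says that tubes came from separate litters, so that p-values measure the spread between tubes. Tubes numbered 3 deviated together (correlation over genes 0.646). For numbers 1 and 2 the correlations were 0.241 and 0.220, against 0.259 between control 2 and AMD3100 1. Each group was centred on its own 3 libraries, so that these values cannot show a pairing of numbers 1 and 2. The replicate block, which takes the shared labels as pairs, was run as an alternative. The fits were run on simulated data with 4-fold changes, a smaller spread between libraries than here and no replicate effect. That run cannot show how the fits perform on these libraries. DESeq2 1.42.0, limma 3.58.1 after quantile normalization, other scalings and filters, and leaving out each library were the other alternatives, and replicates 1 and 2 with a block was added after the data were seen.

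All adhesion genes are named, and from each other list the 3 genes with the lowest p plus any past the thresholds, with exceptions said, apart from some genes not reported here. The members and lists were chosen with earlier results of these data known. Positions and promoters came from RefSeq (GRCm38.p6), and shared 3′ reads from minimap2 2.31-r1302 against NCBIM37 with 11 reads of 50 bases from the last 300 bases of each gene.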

Additional observations from a re-analysis of the deposited data

How the results depend on the processing

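Ctnnd1 kept its direction and stayed past the thresholds in all 16 alternatives, with log2 differences between −2.37 and −1.6 (the range over single libraries left out), and its edgeR adjusted p went under 0.05 (0.00662) only with replicates 1 and 2 and a block, an alternative chosen after the data were seen. DESeq2 gave it an adjusted p of 0.335. The number of genes past the thresholds, 228, became 775 when scaled to epithelial markers, 598 with the replicate block, 613 with replicates 1 and 2, 661 with these and a block, and 163 to 547 with 1 library left out (547 without control replicate 3 and 451 without AMD3100 replicate 3). Genes with an adjusted p under 0.05, 0 with edgeR, were 5 with DESeq2, 3 with the replicate block and 10 with replicates 1 and 2 and a block, where 1 adhesion gene, Ctnnd1, was among them, and 0 with any library left out. Adhesion genes past the thresholds were 2 (Ctnnd1 and Cldn6) with replicates 1 and 2, with or without the block, and 1 with any library left out. Adhesion genes without overlap, 3 (Cdh1, Cldn4 and Ctnnd1), were 2 (Cldn4 and Ctnnd1) after quantile normalization and Ctnna1, Ctnnb1 and Ctnnd1 when scaled to epithelial markers, became 6 with replicates 1 and 2 and ranged from 3 to 6 with a library left out, the 6 being without control replicate 3. The median of the adhesion genes, −0.02, was −0.46 when scaled to epithelial markers and −0.23 to 0.13 with a library left out. The replicate block changed the call of no adhesion gene.

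Small differences changed sign, the cause of which was not tested. Cdh3 (0.02) was −0.12 with the replicate block, −0.12 after quantile normalization, −0.38 when scaled to epithelial markers, −0.0055 with replicates 1 and 2, −0.22 with these and a block, and −0.63 to 0.31 with a library left out. Cldn3 (0.09) was −0.37 when scaled to epithelial markers, −0.036 with replicates 1 and 2, −0.022 with these and a block, and −0.11 to 0.35 with a library left out. Cldn4 (0.43) was −0.16 when scaled to epithelial markers. Ctnnb1 (−0.01) was 0.0038 with the replicate block, 0.046 with replicates 1 and 2, with or without the block, and −0.16 to 0.20 with a library left out. With a library left out Epcam ranged from −0.30 to 0.12 and Cldn7 from −0.28 to 0.24. The biological coefficient of variation was 0.58 with 3 tubes a group, and Cdh3 rested on 46 to 145 counts.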
